A study of Mus musculus with 16 samples.

Results

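Bone morphogenetic proteins (BMPs) are secreted ligands of the TGF-beta family. They bind paired receptor kinases at the cell surface, the receptors phosphorylate SMAD1 and SMAD5, and these enter the nucleus and switch on target genes, of which the ID genes are the best known. An ID protein has a helix-loop-helix domain but no DNA-binding region, and it holds E proteins (such as TCF12) in pairs that cannot bind DNA. BMP and ID genes are known in the mammary gland for roles in branching and in the growth of epithelial and stromal cells. The genes described here are the targets ID1, ID2, ID3 and ID4, the ligands BMP2 and BMP4, the secreted antagonist GREM1, the inhibitory Smads SMAD6 and SMAD7, and BAMBI, a receptor-like protein that lacks the kinase and blocks signalling. They were chosen by symbol, and all 10 were found among the 18132 genes of the table, with a single value per gene and array.

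Levels were measured on Illumina Mouse 8 arrays, on which probe brightness rises with transcript amount, in fibroblasts grown from mammary glands of the inguinal pair, taken from female 129S6 mice of 8 to 10 weeks. The 16 arrays were 4 each of MEKK1+/+ untreated, MEKK1+/+ with conditioned medium, MEKK1-/- untreated and MEKK1-/- with conditioned medium. MEKK1 is a kinase encoded by MAP3K1, and nothing further on the MEKK1-/- allele was given. Untreated cells were in DMEM with 10% FBS, and conditioned medium (CM) was that medium harvested from cultures of the human breast cancer line MDA-MB-231, applied for 8 h. The study used 3 mice per genotype and the mouse behind each culture was not given, so p values measure the spread between cultures, some of which share a mouse.

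Values below are log2 intensities after quantile normalization, which gives all arrays the same distribution, and a difference of 1 is a 2-fold change. A gene was called changed at an adjusted p under 0.05, from limma, where the adjustment (Benjamini-Hochberg) ran across the whole table. Background was set on each array at the 99th percentile of 1075 olfactory receptor genes, the receptors of odours in the nose, and this level lay between 7.20 and 7.34. Of 9 fibroblast markers found, 8 were above it on every array. MAP3K1 gave no lower signal where the label was MEKK1-/- (log2 difference 0.53 untreated, adjusted p = 0.466, and 0.33 with CM, adjusted p = 0.605, limma), and where its probe lies relative to the deleted part was not analysed here, so genotype below means the label. Of 8 epithelial markers found, 1 was above background on every array and 1 (KRT5) on none, and their summed intensity reached 11348 and 10203 on the untreated and CM arrays of MEKK1-/- replicate 1, against 1027 to 1123 on MEKK1+/+ arrays and 1074 to 1592 on the other MEKK1-/- arrays. Of 13 macrophage markers, 6 were above background on every array and 3 (ITGAM, MSR1 and FCER1G) on none, and their sum ran from 22605 to 68440 on MEKK1+/+ and from 10875 to 57529 on MEKK1-/- arrays. In such bulk samples, fewer cells of a type and less RNA per cell cannot be told apart.

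With CM, ID4 fell in both genotypes, ID2 fell in MEKK1-/- cells, and the remaining 8 genes did not pass the test in either. The ID4 signal was reduced to 55.4% of its untreated level in MEKK1+/+ cells and to 51.7% in MEKK1-/- cells. Its treated values lay 0.15 to 0.24 log2 above background in MEKK1+/+ cells and 0.15 to 0.80 in MEKK1-/- cells. These percentages therefore describe signal near background and not the amount of transcript left. In MEKK1+/+ cells 1 of the 10 genes was called, where 5.01% of all genes were called and 2.75% were called lower. The count was 2 of 10 in MEKK1-/- cells, both lower, where 4.69% of all genes were called and 2.51% were called lower. The median log2 difference of the 10 genes was -0.16 in MEKK1+/+ and -0.10 in MEKK1-/- cells, beside -0.002 and -0.004 over all genes. Of these, 5 genes carried signal on most arrays (ID1, ID3, ID4 and GREM1 above background on 16 of 16, ID2 on 13) and 5 did not.

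**Figure D1:**
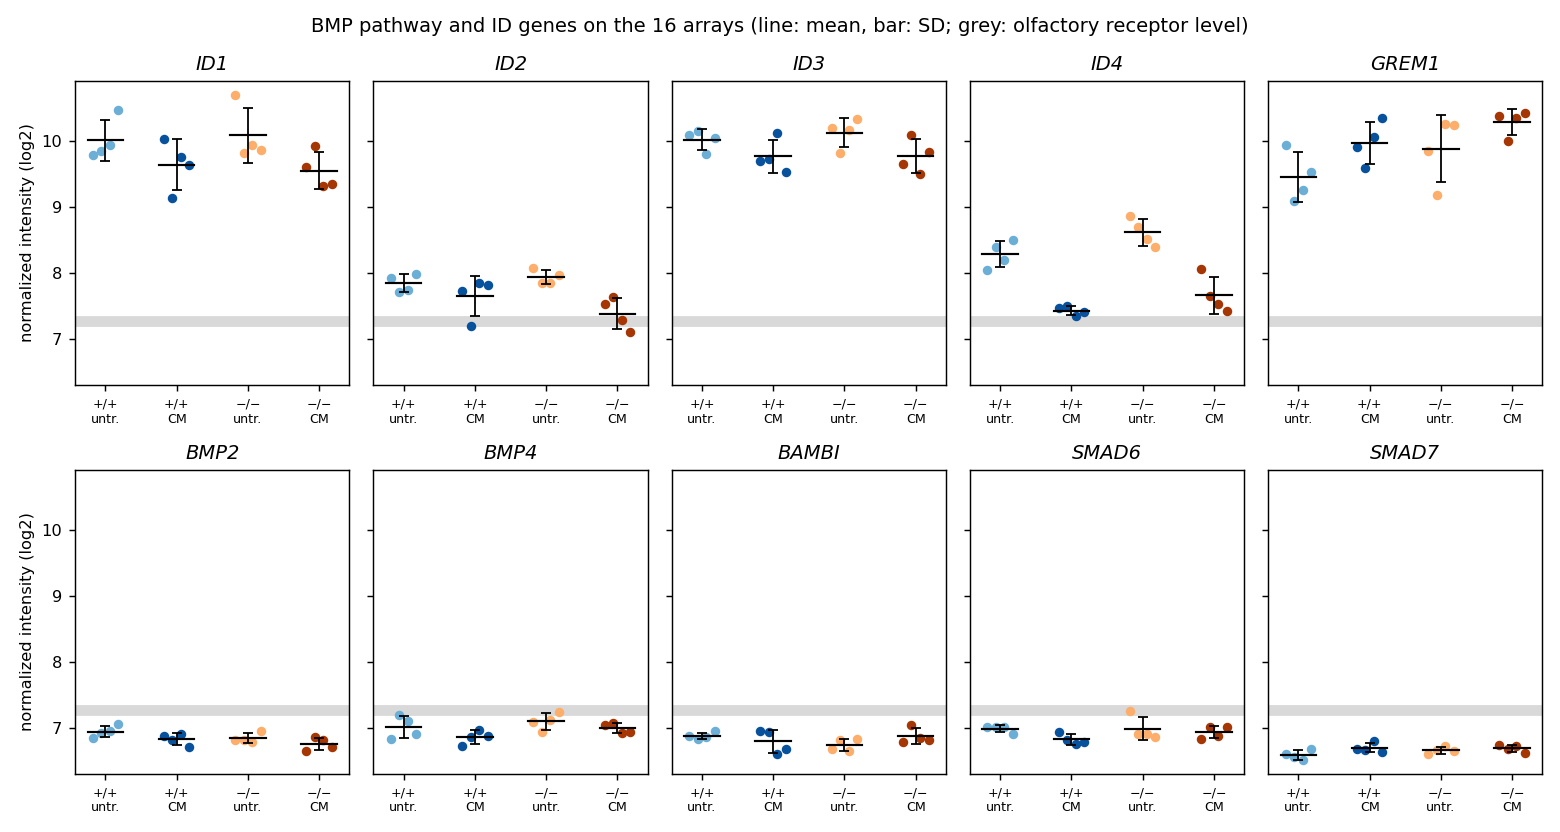
Log2 intensity after quantile normalization (vertical axis) of each of the 10 genes on the 16 arrays, in 4 groups of 4. Points are arrays, lines are group means with bars of 1 SD, and the grey band is the range of the olfactory receptor level. ID4 is lower with CM in both genotypes, and BMP2, BAMBI, SMAD6 and SMAD7 lie below the level on every array.

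ID4 is the ID protein linked in the mammary gland to basal and stem-like epithelial cells, and it can also bind the other ID proteins. In untreated MEKK1+/+ cells its 4 values were 8.06, 8.39, 8.21 and 8.50. With CM they were 7.48, 7.50, 7.35 and 7.42. Every treated MEKK1+/+ array was therefore below every untreated one. The untreated MEKK1-/- values were 8.86, 8.70, 8.52 and 8.40, and the CM values were 8.07, 7.65, 7.54 and 7.42. Again the groups did not overlap, and the highest treated value was that of replicate 1. The log2 difference was -0.85 (SE 0.13) in MEKK1+/+ cells, with adjusted p = 0.00209 by limma and a 95% interval from -1.14 to -0.57. For MEKK1-/- cells it was -0.95 (SE 0.13), with adjusted p = 0.000967 by limma and a 95% interval from -1.24 to -0.67. The 2-sided exact permutation test of 4 arrays against 4 gave p = 0.0286 in each genotype, the smallest it can give. Arrays did not overlap for 9.7% of all genes in MEKK1+/+ and 10.4% in MEKK1-/- cells. ID4 stayed called in both genotypes when each of the 16 arrays was left out in turn and under all 12 other settings tried. In order of mean level, MEKK1-/- untreated (8.62) and MEKK1+/+ untreated (8.29) came first, then MEKK1-/- with CM (7.67) and MEKK1+/+ with CM (7.44). Neighbours within each treatment did not pass the test, whereas the step between treatments did in each genotype. The untreated genotype difference of 0.33 (SE 0.13) had an unadjusted p = 0.0248 and an adjusted p = 0.511 by limma.

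ID2 is expressed in many stromal and epithelial cells and is best known in the gland for the development of alveoli. Untreated MEKK1-/- arrays gave 8.07, 7.85, 7.86 and 7.97. With CM they were 7.53, 7.64, 7.29 and 7.11, all below the untreated values. Replicates 3 and 4 with CM were below background. The log2 difference was -0.55 (SE 0.14), or 68.5% of the untreated level, with adjusted p = 0.0353 by limma and an exact permutation p = 0.0286. This call was lost on the intensities as deposited (adjusted p = 0.445, limma) and with arrays scaled to the same median (adjusted p = 0.0803, limma). It was also lost when any of 5 MEKK1-/- arrays was left out, namely untreated replicates 1, 3 and 4 and CM replicates 3 and 4, with log2 differences from -0.58 to -0.46 and adjusted p from 0.0678 to 0.118 by limma. Without both arrays of replicate 1, which carried the epithelial markers, the difference was -0.56 (adjusted p = 0.0818, limma). In MEKK1+/+ cells the untreated values of ID2 were 7.93, 7.72, 7.75 and 7.99, and with CM they were 7.74, 7.21, 7.85 and 7.83. There the groups overlapped and replicate 2 with CM was the lowest. The difference was -0.19 (SE 0.14; adjusted p = 0.573, limma), and -0.043 without that array. As deposited it was -0.52 (adjusted p = 0.0814, limma). The genotypes were not shown to differ in the response of ID2, since the test of that difference gave -0.35 (SE 0.20; adjusted p = 1.00, limma).

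ID1 is among the first genes switched on by BMP signals. In MEKK1+/+ cells its values were 9.79, 9.84, 9.94 and 10.46 untreated. With CM they were 10.03, 9.13, 9.76 and 9.64. The groups overlapped, since treated replicate 1 lay above 3 of the untreated values. The MEKK1-/- values were 10.69, 9.82, 9.94 and 9.87 untreated, and 9.61, 9.93, 9.32 and 9.35 with CM. Here treated replicate 2 lay among the untreated arrays, and untreated replicate 1, the array with the highest epithelial sum, stood above all others. The log2 difference was -0.37 (SE 0.22; adjusted p = 0.474, limma) in MEKK1+/+ cells. It was -0.53 (SE 0.22; adjusted p = 0.237, limma) in MEKK1-/- cells, and -0.35 (adjusted p = 0.528) without both arrays of replicate 1.

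The result for ID1 depended on the scale. On intensities as deposited, untreated MEKK1+/+ arrays held 1155 to 1367 and treated ones 479 to 941. For MEKK1-/- cells the ranges were 1019 to 1235 and 653 to 816. The groups thus did not overlap in either genotype on that scale. In MEKK1+/+ cells BMP2, which is at background, did not overlap there either, and the share of all genes was not counted on that scale. With arrays scaled to the same median and as z-scores, ID1 also did not overlap in MEKK1-/- cells. In MEKK1+/+ cells it overlapped on both of those scales. The log2 difference was -0.79 in MEKK1+/+ cells, where it was called (adjusted p = 0.0225, limma), and -0.57 in MEKK1-/- cells (adjusted p = 0.307, limma). The median gene of all moved by -0.28 with CM in MEKK1+/+ and by -0.02 in MEKK1-/- cells on that scale. Of the genes called in MEKK1+/+ cells, 96% were lower as deposited, 67% with arrays scaled to the same median, and 54.8% after quantile normalization. Among genes called in MEKK1-/- cells, 24.4% were lower as deposited and 53.6% after quantile normalization. ID4 was lower and called in both genotypes on each of these scales, with deposited intensities of 292 to 397 untreated and 140 to 155 with CM in MEKK1+/+ cells. Its deposited intensities in MEKK1-/- cells were 365 to 467 untreated and 161 to 283 with CM.

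**Figure D2:**
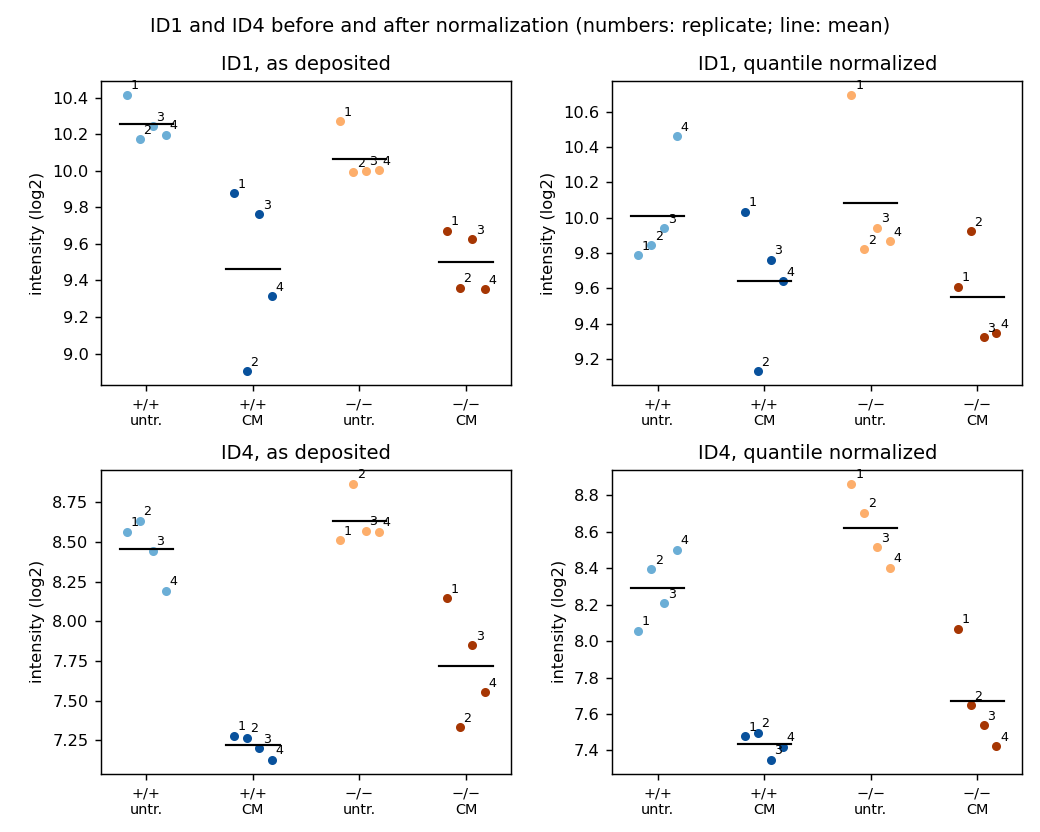
Log2 intensity (vertical axis) of ID1 and ID4 on the 16 arrays, as deposited and after quantile normalization, in the 4 groups, with each point marked by its replicate number. Within each genotype ID4 separates untreated from CM arrays on both scales, and ID1 does so as deposited (1155 to 1367 against 479 to 941 in MEKK1+/+ cells) but overlaps after normalization.

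ID3 is co-expressed with ID1 in many tissues. In MEKK1+/+ cells its untreated values were 10.09, 10.15, 9.80 and 10.04, and with CM they were 9.69, 9.72, 10.12 and 9.52. Only treated replicate 3 reached the range of the untreated arrays. The untreated MEKK1-/- values were 10.19, 9.81, 10.16 and 10.33, and the CM values were 9.65, 10.09, 9.49 and 9.83, so that treated replicates 2 and 4 lay above the lowest untreated array. The difference was -0.26 (SE 0.15; adjusted p = 0.426, limma) in MEKK1+/+ and -0.36 (SE 0.15; adjusted p = 0.221, limma) in MEKK1-/- cells. With arrays scaled to the same median, ID3 did not overlap in MEKK1-/- cells (exact permutation p = 0.0286). It overlapped there as deposited and as z-scores. The share of all genes was not counted on these scales. All 4 ID genes had a difference below 0 in each genotype, as 50.7% of all genes did in MEKK1+/+ and 51.8% in MEKK1-/- cells. An unadjusted p under 0.05 was reached by 1 of the 4 in MEKK1+/+ cells and 4 of 4 in MEKK1-/- cells, against 16.8% and 16.2% of all genes. The 4 genes were not all independent. After removal of group means, their pairwise Pearson's r over the 16 arrays ran from -0.19 (ID3 with ID4) to 0.74 (ID1 with ID2).

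The bases upstream of Id4, Id2 and Id3 are shown because these ID genes have a window in the RefSeq table (build GRCm38.p6). The table matched 6 of the 10 genes by symbol, and ID1, BMP2, BAMBI and SMAD7 have no entry there. Each window is the 250 bases before a RefSeq transcript start, 5′ to 3′ on the gene's strand, at chr13:48260866-48261115 (plus strand) for Id4, chr12:25096093-25096342 (minus strand) for Id2 and chr4:136143572-136143821 (plus strand) for Id3. Capitals mark GGCGCC, a palindrome known as a binding motif of SMAD1 and SMAD5, and CAGAC, a SMAD box, or its reverse complement GTCTG.
Id4: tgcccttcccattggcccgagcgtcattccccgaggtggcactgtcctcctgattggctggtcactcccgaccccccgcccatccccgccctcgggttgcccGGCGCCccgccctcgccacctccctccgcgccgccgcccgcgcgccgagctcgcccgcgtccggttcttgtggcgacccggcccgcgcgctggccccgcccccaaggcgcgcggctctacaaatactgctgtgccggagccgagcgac
Id2: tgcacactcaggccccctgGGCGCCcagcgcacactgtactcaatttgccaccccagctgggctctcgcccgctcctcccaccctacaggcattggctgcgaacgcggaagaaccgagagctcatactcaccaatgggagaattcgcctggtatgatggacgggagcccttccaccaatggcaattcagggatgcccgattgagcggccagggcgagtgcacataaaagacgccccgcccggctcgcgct
Id3: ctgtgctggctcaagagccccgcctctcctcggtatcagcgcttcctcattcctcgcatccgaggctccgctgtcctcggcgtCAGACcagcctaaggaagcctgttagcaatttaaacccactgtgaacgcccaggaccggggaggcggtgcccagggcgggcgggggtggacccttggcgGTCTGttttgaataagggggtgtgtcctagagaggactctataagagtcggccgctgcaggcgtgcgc
The last base of GGCGCC lay 143 bases before the start in Id4 and 226 in Id2, and Id3 held none. Id3 held the SMAD box with its last base at 163 and 64 bases before the start, and Id4 and Id2 held none. Among the matched genes whose windows are not printed, Grem1 held GGCGCC, with its last base at 73, and the SMAD box, with its last base at 215. Bmp4 and Smad6 held neither. Of 32851 windows of the same length, 9.59% held GGCGCC and 42.2% held the SMAD box on either strand. The E-box CANNTG, the site E proteins bind, was found once in Id2 and not in Id3 or Id4, and 66.2% of all windows held it. These are matches of letters in a window and no binding was measured.

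GREM1 encodes gremlin, which binds BMP2 and BMP4 outside the cell and keeps them from their receptors, and it is made by stromal fibroblasts. Its untreated MEKK1+/+ values were 9.94, 9.09, 9.26 and 9.53, and with CM they were 9.90, 9.59, 10.05 and 10.35. The MEKK1-/- values were 9.84, 9.18, 10.26 and 10.24 untreated, and 10.38, 10.00, 10.35 and 10.42 with CM. The treated arrays overlapped the untreated ones in both genotypes, through the high untreated replicate 1 in MEKK1+/+ cells and replicates 3 and 4 in MEKK1-/- cells. The log2 difference was 0.52 (SE 0.23) in MEKK1+/+ cells, with an unadjusted p = 0.0414 and an adjusted p = 0.267 by limma. It was 0.41 (SE 0.23; adjusted p = 0.445, limma) in MEKK1-/- cells. As deposited the MEKK1+/+ difference was 0.12 (exact permutation p = 0.857), and the MEKK1-/- difference was 0.17 without untreated replicate 2. Among the 5 genes with signal GREM1 alone had estimates above 0, and it did not pass the test in either genotype.

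The ligands BMP2 and BMP4 and the inhibitors SMAD6, SMAD7 and BAMBI gave signals at background. Of their 80 values, 1 was above the olfactory receptor level, BMP4 on an untreated MEKK1-/- array. Their values ran from 6.52 to 7.26, with 82.6 to 173 as deposited. SMAD6 and SMAD7 are themselves switched on by BMP signals and block the receptors or the SMADs. The lowest adjusted p among these 5 genes over all comparisons was 0.32 by limma, and no fold is given for values at background. BAMBI values did not overlap between untreated genotypes (means 6.88 in MEKK1+/+ and 6.75 in MEKK1-/-, adjusted p = 0.618, limma, and exact permutation p = 0.0286), with all of them below background, as arrays did not overlap for 4.61% of all genes. By the z-test on z-scores SMAD6 was called lower with CM in MEKK1+/+ cells, which limma did not call.

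No gene of the 10 was called between genotypes, where 0% of all genes were called in untreated cells and 0.00552% with CM. In untreated cells the MEKK1-/- minus MEKK1+/+ difference was 0.07 for ID1, 0.09 for ID2, 0.10 for ID3, 0.33 for ID4 and 0.43 for GREM1. The lowest adjusted p among the 10 was 0.511 by limma, and 1 reached an unadjusted p under 0.05, as 9.27% of all genes did. As deposited, the first 3 of these differences were below 0. With CM the differences were -0.09 for ID1, -0.27 for ID2, 0.003 for ID3, 0.23 for ID4 and 0.31 for GREM1, with a lowest adjusted p of 0.645 by limma. As deposited the difference with CM was -0.025 for ID2, and for ID4 it was 0.50 with arrays that did not overlap (exact permutation p = 0.0286, not called by limma). The median gene of all differed by 0.28 in that comparison and scale. BMP2, BMP4, BAMBI and SMAD6, all at background, did not overlap there either. The share of all genes that did not overlap on the deposited scale was not counted. Epithelial markers differed between genotypes by a median of 0.86 untreated and 0.72 with CM, and macrophage markers by -0.74 and -0.64, and their part in these differences was not tested. Between treatments of a genotype the medians of those lists moved by at most 0.06 in either direction (epithelial -0.04 and -0.06, macrophage -0.03 and -0.01, in MEKK1+/+ and MEKK1-/- cells). The 9 fibroblast markers had a median difference with CM of 0.34 in MEKK1+/+ and 0.41 in MEKK1-/- cells. Medians over all genes were -0.002 and -0.004. Signs within this list were mixed, and 2 of the 9 markers lay below 0 for MEKK1+/+ and 4 for MEKK1-/-. In each genotype 1 fibroblast marker was called higher and 0 lower. The fibroblast marker sums were 73878 to 78235 untreated and 73156 to 96380 with CM in MEKK1+/+ cells. Their sums in MEKK1-/- cells were 73515 to 79446 untreated and 76809 to 85742 with CM, and their part in the differences of ID4 and ID2 was not tested.

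No gene of the 10 was called for a difference in response between the genotypes, where 0% of all genes were called and 2.61% had an unadjusted p under 0.05. For ID4 the response in MEKK1-/- minus that in MEKK1+/+ cells was -0.10 (SE 0.19), with a 95% interval from -0.50 to 0.30.

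**Figure D3:**
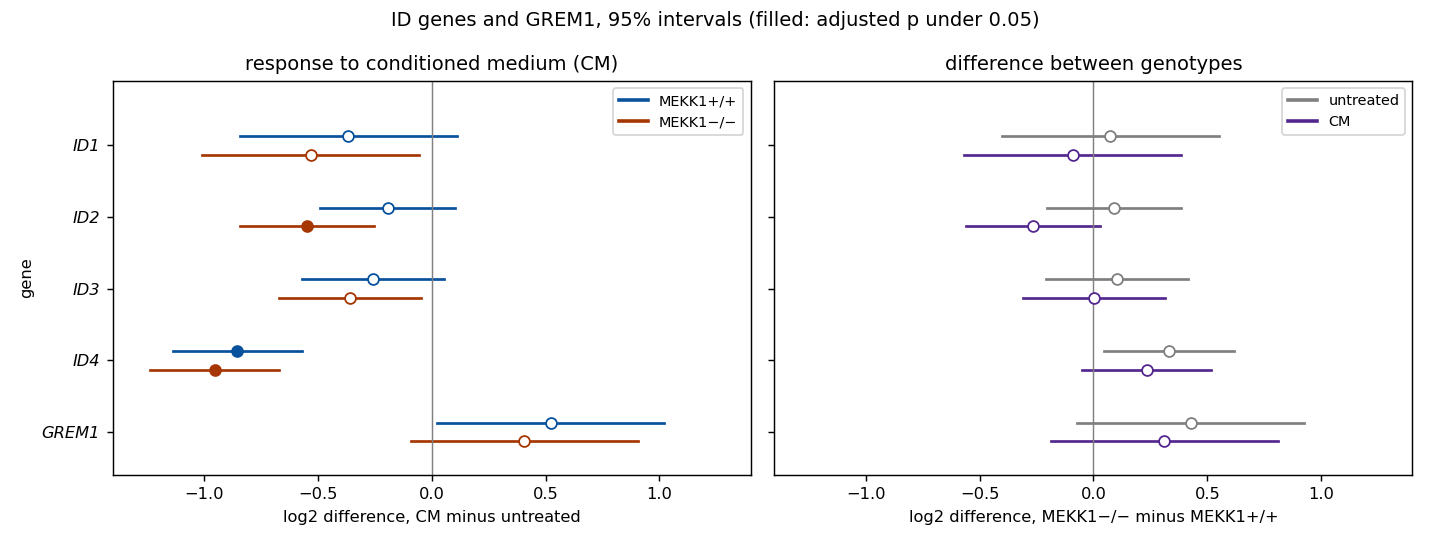
Log2 difference (horizontal axis) with its 95% interval for ID1, ID2, ID3, ID4 and GREM1, as CM minus untreated in each genotype and as MEKK1-/- minus MEKK1+/+ in each treatment. Filled points have an adjusted p under 0.05 by limma: ID4 in both genotypes (-0.85 and -0.95) and ID2 in MEKK1-/- cells (-0.55), and no genotype difference.

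Other genes of the pathway were taken from a list of 59 by role, of which 54 were measured and the other 5 were not analysed here. Of the 54, 23 were above background on every array and 19 on none. With CM, 3 were called higher and 0 lower in MEKK1+/+ cells (BMP6, BMP8A and ACVRL1). The calls in MEKK1-/- cells were 4 higher (those genes and SMURF1) and 1 lower (ATOH8), where 2.27% of all genes were called higher in MEKK1+/+ and 2.18% in MEKK1-/- cells. The median difference of the 54 was 0.02 in MEKK1+/+ and 0.005 in MEKK1-/- cells. None of the 54 was called between genotypes or for a difference in response. By role, calls came from 2 of 11 ligands and 1 of 11 receptors in each genotype, and in MEKK1-/- cells from 1 of 4 Smads and ligases and 1 of 8 targets. Of 17 secreted inhibitors or modulators and 3 E proteins, 0 were called.

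BMP8A, a ligand close in sequence to BMP8B, had untreated MEKK1+/+ values of 7.48 to 7.68 and CM values of 7.84 to 8.48. The MEKK1-/- ranges were 7.26 to 7.50 and 7.78 to 7.93. The treated arrays were above the untreated ones throughout, by 0.60 (adjusted p = 0.00503) and 0.51 (adjusted p = 0.0128) by limma. Which of the close copies the probe reads was not analysed here. BMP6, another ligand, had a log2 difference of 0.45 (adjusted p = 0.00195) in MEKK1+/+ and 0.33 (adjusted p = 0.0118) in MEKK1-/- cells by limma. All 8 of its untreated values were below background. With CM it was above background on 3 of 4 MEKK1+/+ arrays and on 1 of 4 MEKK1-/- arrays. In MEKK1+/+ cells it was therefore at least 1.01-fold higher, and in MEKK1-/- cells no fold can be given. The BMP6 call in MEKK1-/- cells was lost in a fit of only the groups compared (adjusted p = 0.066, limma).

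ACVRL1 (ALK1) is a receptor for BMP9 and BMP10, best known in endothelial cells. It rose by 0.51 (adjusted p = 0.0471) in MEKK1+/+ and 0.72 (adjusted p = 0.00772) in MEKK1-/- cells by limma. Of the untreated MEKK1+/+ arrays 1 of 4 was above background, so differences from that group rest on values mostly at background, and all arrays of the other groups were above it. The MEKK1+/+ call was also lost with arrays scaled to the same median (adjusted p = 0.0515, limma) and with a pseudocount of 16 (adjusted p = 0.0553, limma). The call in MEKK1+/+ cells was lost when any of 11 arrays was left out, namely untreated replicates 1, 2 and 3 and CM replicates 2, 3 and 4 of MEKK1+/+ and untreated replicates 2, 3 and 4 and CM replicates 2 and 3 of MEKK1-/- (log2 differences 0.45 to 0.55, adjusted p from 0.0549 to 0.136, limma). Its untreated values were 6.97 to 7.28 in MEKK1+/+ and 7.50 to 7.70 in MEKK1-/- cells, and with CM they were 7.42 to 7.81 and 7.88 to 8.67. Within each treatment, every MEKK1-/- array was above every MEKK1+/+ array. Arrays did not overlap between genotypes, in either direction, for 4.61% of all genes untreated and 4.17% with CM. The genotype difference was 0.52 (adjusted p = 0.466) untreated and 0.73 (adjusted p = 0.398) with CM by limma. The exact permutation p was 0.0286 in each. The z-test on z-scores called it in both (adjusted p = 8.998e-07 and 0.0482), but with 4 arrays per group the p values of that test tend to be too small. Without MEKK1-/- replicate 1 with CM the difference with CM was 0.89 and was called (adjusted p = 0.00677, limma), and without both arrays of replicate 1 it was 0.90 (adjusted p = 0.00813, limma). Of 7 endothelial markers, 0 were above background on every array, KDR and TIE1 were above it on none, their sum ran from 890 to 1039 on MEKK1+/+ and from 992 to 1589 on MEKK1-/- arrays, and the list's median genotype difference was 0.14 in each treatment. Their part in the level of ACVRL1 was not tested.

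SMURF1, a ubiquitin ligase that marks SMAD1 and SMAD5 for breakdown, rose by 0.44 (adjusted p = 0.0163, limma) in MEKK1-/- cells, a call lost without CM replicate 2 (0.42, adjusted p = 0.0543) and without both arrays of replicate 1 (0.43, adjusted p = 0.0637). Its difference of 0.34 in MEKK1+/+ cells missed the threshold (adjusted p = 0.0584, limma), and as deposited it was 0.027. It passed without MEKK1+/+ untreated replicate 4 (0.43, adjusted p = 0.00973) or CM replicate 2 (0.40, adjusted p = 0.0348), with array weights (adjusted p = 0.0149), with only genes above background on at least 4 arrays (adjusted p = 0.0486) and with the replicate number as a block within genotype (adjusted p = 0.00623), all by limma. ATOH8, a transcription factor switched on by BMP signals in several cell types, was above background on 4 of 4 untreated MEKK1-/- arrays and on 0 of 4 with CM. It was at least 1.14-fold lower there (adjusted p = 0.00516, limma), with means of 7.49 and 6.89. In MEKK1+/+ cells the ATOH8 difference was -0.22 (adjusted p = 0.35, limma), and the genotypes were not shown to differ (-0.39, adjusted p = 1.00, limma). On the intensities as deposited, none of these calls of pathway genes was kept, although each direction was. There the log2 differences in MEKK1+/+ cells were 0.20 for BMP6, 0.28 for BMP8A and 0.26 for ACVRL1. In MEKK1-/- cells they were 0.30 for BMP6, 0.49 for BMP8A, 0.67 for ACVRL1, 0.43 for SMURF1 and -0.55 for ATOH8.

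**Figure D4:**
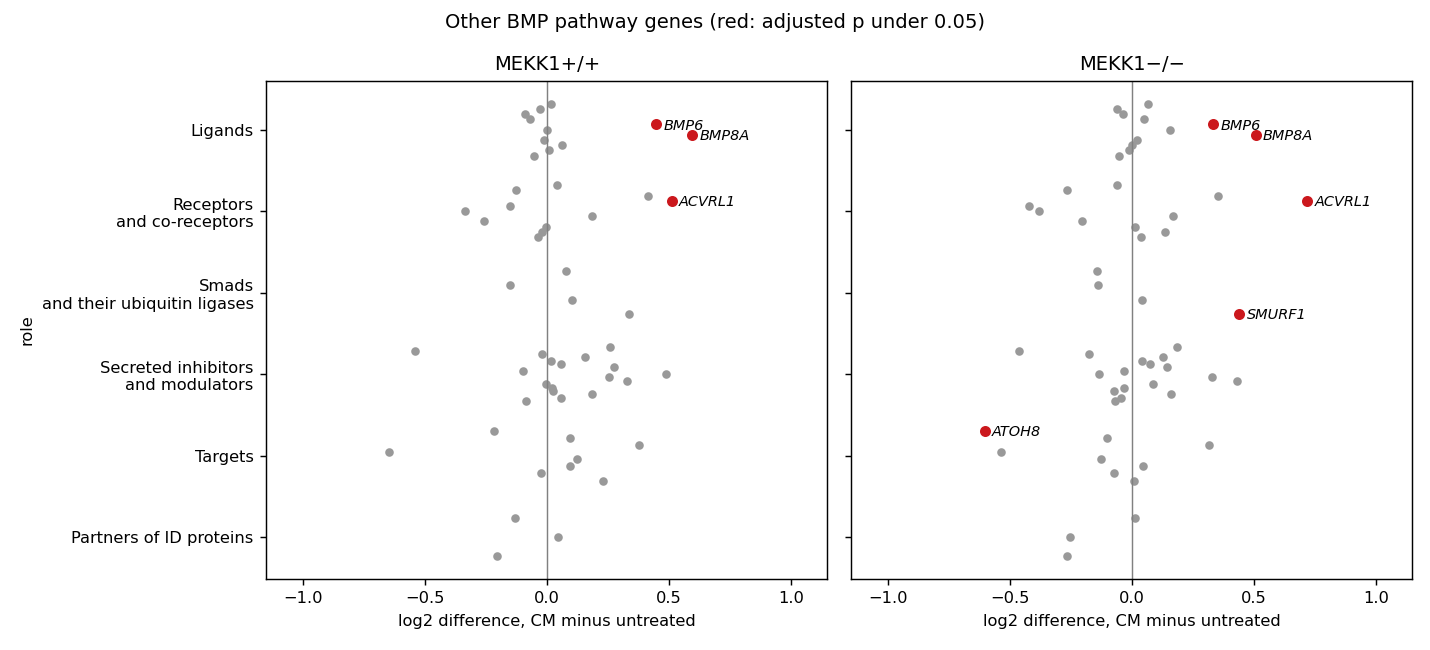
Log2 difference with CM (horizontal axis) for the 54 other genes of the pathway, grouped by role, in MEKK1+/+ and MEKK1-/- cells. Each point is a gene, and red labelled points have an adjusted p under 0.05 by limma: 3 in MEKK1+/+ and 5 in MEKK1-/- cells, most points lying near 0.

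The genes whose pattern over the 16 arrays was most like that of ID4 or ID2, the members that varied most between groups, were found by Pearson's r among 8796 genes above background on at least 4 arrays. For ID4 they were MED16 and NCOA5 (r = 0.947 each), and DDX17, N6AMT1 and TNFRSF12A (r = 0.94 each). MED16 is a subunit of the Mediator complex, NCOA5 a nuclear receptor coactivator, DDX17 an RNA helicase, N6AMT1 a methyltransferase and TNFRSF12A the receptor of TWEAK. Since they were chosen for a pattern like that of ID4, their differences with CM are a description, from -1.35 to -0.56 in MEKK1+/+ and from -1.23 to -0.49 in MEKK1-/- cells. For ID2 the nearest genes were DNAJB1 (r = 0.875), a co-chaperone of heat shock proteins, 9130011J15RIK (0.861), LOC677144 (0.824), LUZP1 (0.82) and ID1 (0.817), with differences from -0.46 to -0.14 in MEKK1+/+ and from -0.61 to -0.23 in MEKK1-/- cells. These correlations hold the differences between groups as well as those between arrays of a group.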

How the data were processed

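The authors deposited linear intensity values, 1 per gene symbol and array, which per the labels a core facility had normalized. How it did so, how it treated background and how it combined probes are not given in the sources used here. Array medians ran from 114 to 170.1, so log2 values were quantile normalized between arrays, with the deposited scale kept as an alternative. The number of arrays limits the precision.

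Groups and replicates came from the labels. The 4 groups were fitted together with limma 3.58.1 in R 4.3.3 (lmFit and eBayes, 12 residual degrees of freedom). The 5 comparisons were CM against untreated in each genotype, genotype in each treatment and their interaction, with Benjamini-Hochberg adjustment over 18132 genes and a threshold of 0.05. Single genes also had 2-sided exact permutation tests. The limma fit and its calls were tested on simulated data with independent noise between arrays. Normalization, the background level and shared mice were not part of that test. The paper's z-test on z-scores was an alternative. As run here it took the spread of each gene from its own 4 arrays per group and used a normal distribution. Its p values therefore tend to be too small.

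Named genes were the 10 members, pathway genes called in any comparison, and the 5 genes most like each of the pair of members with the highest F over the groups. The members, gene lists and marker lists were chosen with earlier results of these data known. Promoter windows are RefSeq's (GRCm38.p6). The E protein gene TCFE2A was read from the row TCF3, a symbol also used for Tcf7l1.

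Replicate numbers were checked as pairs by correlating deviations from group means. Between untreated and CM arrays of the same number in MEKK1-/- cells the correlations were 0.505, 0.403, 0.219 and 0.251. No label says what a number stands for. In MEKK1+/+ cells the correlations ran from -0.038 to 0.576. Arrays of different numbers were not compared, so this check left the pairing open in both genotypes. The macrophage sums of the untreated and CM arrays of a number were close in MEKK1+/+ cells. They were 68440 and 62281, 25323 and 22605, 60754 and 61734, and 48475 and 48655 for replicates 1 to 4. These sums did not tell replicates 1 and 3 apart. The main fit did not use the numbers as pairs.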

Additional observations from a re-analysis of the deposited data

Results flagged for a closer look

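Among the 40 groups of 4 arrays over the 10 genes, 3 held an array far from the rest, and chance alone flags about 1 in 20. ID1 was 10.69 on untreated MEKK1-/- replicate 1, with the next array at 9.94 and the gap taking 0.862 of the group's range. On the deposited scale the ID1 intensities of that group ran from 1019 to 1235. SMAD6 was 7.26 on the same array, with the next at 6.92. It was also 6.91 on untreated MEKK1+/+ replicate 4, with the next at 7.02. All SMAD6 values were below the olfactory receptor level. Untreated MEKK1-/- replicate 1 is also the array whose summed epithelial markers were 11348, and their part in these values was not tested.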

How the results depend on the processing

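ID4 kept its direction and its call with CM in both genotypes under every setting tried (log2 difference -1.24 to -0.80 in MEKK1+/+ and -1.01 to -0.90 in MEKK1-/- cells) and with each array left out (-0.92 to -0.78 and -1.09 to -0.87). The count of the 10 genes called in MEKK1+/+ cells was 1, and it was 2 as deposited (ID1 and ID4) and 2 by the z-test (ID4 and SMAD6). In MEKK1-/- cells it was 2, and 1 as deposited, 1 with arrays scaled to the same median, 1 without both arrays of replicate 1 (a setting chosen after seeing the data), and 1 to 2 with each array left out. The cause of these changes was not tested.

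Small differences changed sign. Between untreated genotypes, ID1 was -0.19 as deposited, -0.21 at the same median and -0.13 without both arrays (-0.13 to 0.23 with each array left out), ID2 was -0.033 and -0.054, and ID3 was -0.15 and -0.17, as deposited and at the same median. With CM, the genotype difference of ID1 was 0.038 as deposited (-0.26 to 0.039 with each array left out), and that of ID3 was -0.19 at the same median, -0.014 by the z-test and -0.011 with array weights (-0.10 to 0.12 with each array left out). The difference in response was, as deposited, 0.23 for ID1, 0.008 for ID2, 0.27 for ID3, 0.33 for ID4 and 0.22 for GREM1, and it was 0.041 for ID4 at the same median and 0.02 for ID1 without both arrays. With each array left out it ran from -0.34 to 0.039 for ID1, -0.21 to 0.017 for ID3 and -0.35 to 0.012 for GREM1.

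The replicate block left the count at 1 in MEKK1+/+ and 2 in MEKK1-/- cells. A replicate block within genotype, which takes arrays of the same number as pairs, gave the same counts and changed no call of the 10 genes. With it 1481 and 1438 of all genes were called. Over all genes, 909 were called in MEKK1+/+ and 851 in MEKK1-/- cells. As deposited 45 were called in MEKK1-/- cells, and at the same median 463. The z-test called 1916 and 2047, and 817 and 460 between genotypes (0 and 1 by limma) and 20 for the response (0). Since its p values tend to be too small, these counts tend to be too high. Fitting only the groups compared gave 591 in MEKK1+/+, and array weights 1355 in MEKK1-/- cells. With each array left out the counts ran from 506 to 1007 in MEKK1+/+ and from 477 to 1027 in MEKK1-/- cells. Signal over background limits BMP2, BMP4, BAMBI, SMAD6 and SMAD7, and ID2 on 3 arrays. It also limits the size of the fall of ID4, whose CM values in MEKK1+/+ cells lay 0.15 to 0.24 log2 above background.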
